A study of Mus musculus with 12 samples.

Results

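Th1 cells make interferon gamma, and Treg that take on part of their programme are called Th1-like. The 10 genes described here are those of that programme: the transcription factor genes Tbx21, Eomes, Runx3 and Hopx, the signal transducer gene Stat4, the interleukin 12 receptor genes Il12rb1 and Il12rb2, the interleukin 18 receptor genes Il18r1 and Il18rap, and the cytokine gene Ifng. They were found by symbol in each of the 12 deposited libraries, 10 of 10, among 20856 genes that could be matched across all libraries. The question is how far these genes differed between regulatory T cells (Treg) of a venous thrombus, of the vein wall around it, and of the spleen.

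The cells were sorted by flow cytometry as live CD45+ CD4+ cells that carried both CD69, a marker of recent activation and of tissue residence, and EGFP under Foxp3 control. All groups came from DEREG mice on a C57BL/6 background, whose Foxp3-DTR/EGFP transgene places a diphtheria toxin receptor and EGFP under Foxp3 control. The inferior vena cava had been ligated in all of them, which reduces flow and models deep vein thrombosis, and tissues were taken at day 14. The groups are thrombus Treg, vein wall Treg and spleen Treg, with 4 libraries each. The spleen samples came from the same thrombotic animals, so there is no group from mice without a thrombus. Neither the age of the mice nor whether a library holds 1 mouse or a pool is given in the labels, so p-values measure the spread of these samples only, part of which may be technical.

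In mouse T cells, interleukin 12 binds a receptor of 2 chains and acts through STAT4, which together with the T-box factor T-bet (Tbx21) turns on Ifng. T-bet and STAT4 also raise the interleukin 18 receptor, and interleukin 18 then adds to the output of interferon gamma. Runx3 works beside T-bet at the Ifng locus, Eomes is a second T-box factor used mainly by CD8 T cells and natural killer (NK) cells, and Hopx is a small homeodomain protein without DNA binding of its own that is found in Th1 effector cells. In Treg, T-bet is known to go with the chemokine receptor CXCR3 and with control of Th1 inflammation, and Hopx is known to be needed by Treg that arise in the periphery.

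Promoter sequences are shown for the 3 genes that the results turn on: Hopx, the gene with the clearest separation between tissues, Tbx21, the lineage factor, and Ifng, the output of the pathway. Each is the stretch of 250 bases before the RefSeq start in GRCm38.p6, written 5′ to 3′ on the strand of the gene, with motif matches in capitals.
Hopx (chr5:77115124-77115373, minus strand): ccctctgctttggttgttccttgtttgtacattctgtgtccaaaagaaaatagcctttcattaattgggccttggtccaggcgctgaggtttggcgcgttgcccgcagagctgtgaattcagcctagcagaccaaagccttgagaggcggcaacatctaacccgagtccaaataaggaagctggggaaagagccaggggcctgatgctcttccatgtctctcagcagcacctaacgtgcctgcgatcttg
Tbx21 (chr11:97115332-97115581, minus strand): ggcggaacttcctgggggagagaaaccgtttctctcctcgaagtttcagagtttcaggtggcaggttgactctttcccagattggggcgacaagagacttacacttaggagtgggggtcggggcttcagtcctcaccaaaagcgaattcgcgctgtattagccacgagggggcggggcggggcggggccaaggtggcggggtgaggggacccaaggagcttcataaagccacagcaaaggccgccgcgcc
Ifng (chr10:118440796-118441045, plus strand): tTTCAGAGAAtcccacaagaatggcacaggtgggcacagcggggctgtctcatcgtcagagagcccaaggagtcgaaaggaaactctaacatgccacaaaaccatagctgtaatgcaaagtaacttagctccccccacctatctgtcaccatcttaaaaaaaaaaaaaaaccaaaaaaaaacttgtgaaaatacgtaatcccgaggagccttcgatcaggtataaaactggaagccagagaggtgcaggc
RefSeq promoters were matched for 9 of the 10 genes (all but Il12rb1), 14 promoters in all. They were searched on both strands for a T-box half-site (GGTGTGA or TCACACC), a STAT site (TTCNNNGAA), a RUNX site (ACCACA or TGTGGT) and an AP-1 site (TGANTCA). The STAT letters, capitalised in the Ifng promoter at position -249, also occurred once in Il12rb2 at -123 and 2 times in promoter 3 of Il18r1, at -219 and -152. The RUNX letters occurred 2 times in promoter 1 of Runx3, at -134 and -126, and none of the searched letters lay in the windows of Hopx and Tbx21. Over 32851 promoters of the same length, the STAT letters were present in 7.02%, RUNX in 14.0%, AP-1 in 6.75% and the T-box half-site in 3.33%. These are matches of letters and were not tested for binding.

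Total exon reads per library ranged from 9719151 to 55386086. The deposited tables come in 3 layouts, called sets here, each with its own gene models: thrombus 1 with spleen 1 (set 1), thrombus 2 with vein wall 1 and spleen 2 (set 2), and the other 7 libraries (set 3). Vein wall 3 and 4, and spleen 3 and 4, differed by far less than any other pair of a tissue (mean chi-square per gene 2.56 for vein wall and 3.96 for spleen, against 96.8 to 355 in 16 other pairs), so each pair was summed and counted as 1 sample, which leaves 4 thrombus, 3 vein wall and 3 spleen samples. The first principal component followed the set (r2 = 0.868) and not the tissue (r2 = 0.0462), so values are also given with the set as a covariate or within a set. All 8 Treg markers, Foxp3 among them, had reads in each tissue, with sums of 5722 to 7171 CPM in thrombus, 6195 to 7123 in vein wall and 5541 to 5769 in spleen. CPM values use library sizes scaled by the trimmed mean of M values (TMM).

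**Figure D1:**
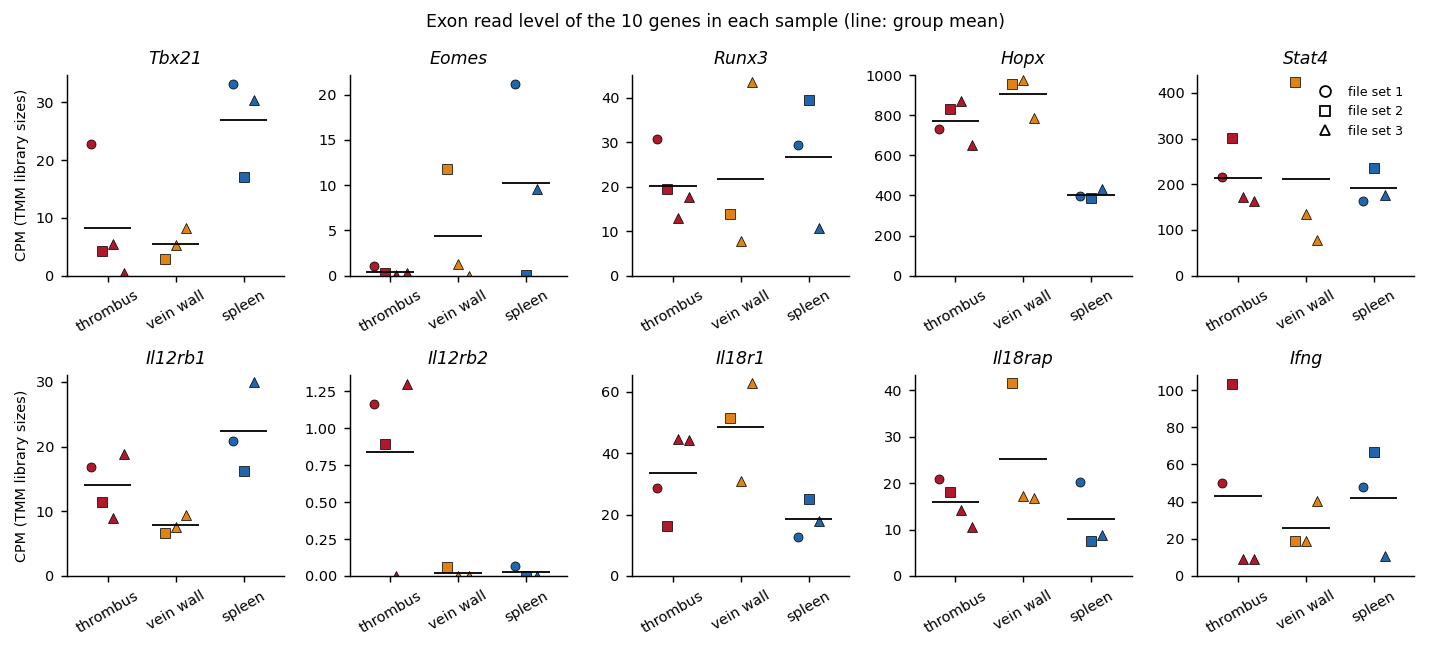
Exon read level (CPM, TMM library sizes) of the 10 genes in thrombus, vein wall and spleen samples. Each point is 1 sample, its shape gives the set of files and the line is the group mean. Hopx lies at 652 to 872 CPM in thrombus and 788 to 974 in vein wall, above the 385 to 430.0 of spleen.

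Per kilobase of exon, the 10 genes spanned a wide range of levels. Averaged over all samples, Hopx stood at 463 CPM per kb, Stat4 at 62.7 and Ifng at 31.0. Il18r1, Tbx21, Runx3, Il12rb1 and Il18rap had 6.84, 5.20, 5.17, 4.14 and 3.34 CPM per kb. Eomes had 1.13 and Il12rb2 0.0912. The signal transducer and Hopx were thus abundant in these Treg, while the IL-12 receptor beta 2 chain was at the edge of detection.

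No gene of the 10 passed the test in any comparison when tissue was the single factor. With edgeR's quasi-likelihood F test and Benjamini-Hochberg adjustment over 11705 genes, 0 of the 10 genes were called at an adjusted p under 0.05 in thrombus against spleen (0.145% of all genes tested were called), in vein wall against spleen (0.111%) and in thrombus against vein wall (0.0%). At an unadjusted p under 0.05 the counts of these 10 were 2 (4.13% of all genes tested), 4 (5.46%) and 0 (2.91%). With file set as a covariate, Hopx alone was called, in thrombus against spleen (0.453% of all genes tested) and in vein wall against spleen (0.41%), and none in thrombus against vein wall (0.0%). DESeq2 called Hopx in vein wall against spleen (1.02% of all genes tested), none of the 10 in thrombus against spleen (0.897%) and none in thrombus against vein wall (0.0854%). The direction was mixed: 6 genes lay above 0 and 4 below in thrombus against spleen, 5 and 5 in vein wall against spleen, and 5 and 5 in thrombus against vein wall. Il12rb2 is among the genes above 0 in each comparison and enters the medians that follow. It passed the filter on low counts through the thrombus group alone, so its sign in the comparisons with thrombus is no separate result. Between vein wall and spleen, with 1 read in each, it counts as above 0 by its fitted value alone. Over the 10 genes the median log2 fold changes were 0.10, -0.14 and -0.05, beside 0.03, -0.01 and 0.04 over all genes tested.

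By the plain criterion of groups that do not overlap, Hopx was higher in each thrombus sample than in any spleen sample, 1 of the 10 genes (2.49% of all genes tested), and none of the 10 was lower in this way (2.49%). Between vein wall and spleen 4 of the 10 did not overlap, Hopx and Il18r1 being higher (6.77% of all genes tested) and Tbx21 and Il12rb1 lower (6.48%) in vein wall. Between thrombus and vein wall none of the 10 separated in either direction (3.83% of all genes tested). The comparisons with spleen share the 3 spleen samples. All 10 genes passed the filter on low counts, Il12rb2 through the thrombus group alone.

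Hopx, on chromosome 5 (77086988 to 77115121, minus strand, GRCm38), had 730.4, 832, 872 and 652 CPM in thrombus 1 to 4. In vein wall 1, vein wall 2 and vein wall 3-4 it had 954, 974 and 788 CPM, and in spleen 1, spleen 2 and spleen 3-4 it had 396, 385 and 430.0 CPM. Each thrombus and each vein wall sample was above all spleen samples, while thrombus and vein wall overlapped. The means were 771 ± 99.7 CPM in thrombus (SD, n = 4), 905 ± 102 in vein wall (n = 3) and 404 ± 23.5 in spleen (n = 3). The log2 fold change over spleen was 0.93 ± 0.28 (SE) in thrombus, with adjusted p = 0.578 (edgeR), and 1.17 ± 0.30 in vein wall, with adjusted p = 0.325.

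With file set as a covariate, Hopx rose by 0.93 ± 0.20 on the log2 scale in thrombus (adjusted p = 0.0451, edgeR) and by 1.15 ± 0.23 in vein wall (adjusted p = 0.0234), both against spleen. Over the other settings of the test, adjusted p ran from 0.0451 to 1.000 in thrombus and from 0.0132 to 0.911 in vein wall. The size was alike in each set: 0.88, 1.11 and 0.82 for thrombus in sets 1, 2 and 3, and 1.31 and 1.03 for vein wall in sets 2 and 3, as log2 ratios with 0.5 CPM added. Leaving out 1 sample at a time from the covariate fit kept the thrombus call only without thrombus 4 (1 of 10, adjusted p 0.0420 to 0.384). The vein wall call was lost without spleen 2, spleen 3-4, vein wall 1 or vein wall 2, and kept in 6 of 10 (adjusted p 0.0194 to 0.290). The fold change stayed between 0.86 and 1.01 in thrombus and between 1.07 and 1.23 in vein wall in those fits. Between thrombus and vein wall Hopx had a log2 fold change of -0.23 ± 0.28 (adjusted p = 1.000).

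**Figure D2:**
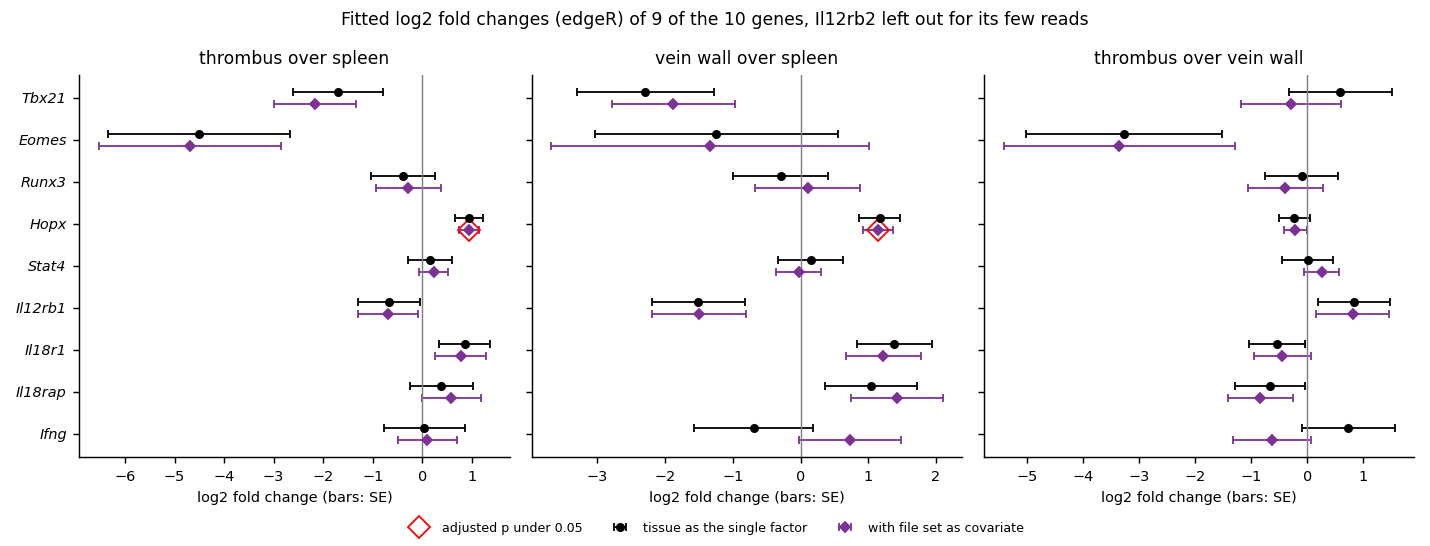
Fitted log2 fold changes (edgeR) with SE bars, for tissue as the single factor (black) and with file set as a covariate (purple), for 9 of the 10 genes. Hopx, at 0.93 in thrombus and 1.15 in vein wall over spleen, is the 1 gene with an adjusted p under 0.05 (red outline), and Ifng changes sign between the fits in vein wall over spleen.

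Hopx was also the 1 gene of the 10 whose intron reads lay above all spleen samples in each thrombus sample (2.87% of all genes tested), and none lay below (2.43%). In vein wall the intron reads of Hopx, Il18r1 and Eomes lay above (3.6% of all genes tested) and those of Il12rb1 below (6.96%). Intron reads of Hopx came to 78.2, 28.9, 137 and 152 CPM in thrombus 1 to 4, to 65.1, 91.1 and 133 in the vein wall samples, and to 24.4, 6.91 and 23.9 in the spleen samples. They made up 3.36% to 18.9% of Hopx reads in thrombus, 6.39% to 14.4% in vein wall and 1.76% to 5.81% in spleen. The antisense gene Hopxos lies within Hopx. These libraries do not mark strand, so reads where the 2 genes overlap cannot be told apart. Hopxos exons were given 0 reads in spleen 1 and 2 in thrombus 1, where Hopx had 348 and 1205 intron reads. They were given 31, 13 and 54 reads in spleen 2, thrombus 2 and vein wall 1, where Hopx had 7184, 14881 and 15068 exon reads. In set 3 the exon length of Hopxos was 0, and its part in the Hopx reads was not tested. With unique exon reads in place of total exon reads, the covariate fit gave 0.96 in thrombus (adjusted p = 0.0372, edgeR) and 1.16 in vein wall (adjusted p = 0.0213).

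Markers of other cell types were also higher than in spleen in some lists and tissues. The 4 endothelial markers summed to 54.9 to 66.8 CPM in thrombus, 44.4 to 47.3 in vein wall and 23.9 to 52.5 in spleen, where Cdh5 was at 0. Pecam1 made up most of these sums, with 54.7 to 65.0 CPM in thrombus, 41.2 to 47.3 in vein wall and 23.2 to 52.5 in spleen. The 6 smooth muscle and fibroblast markers summed to 5.61 to 14.6 CPM in thrombus, 8.13 to 58.3 in vein wall and 0.712 to 6.00 in spleen, with Myh11 at 0 in thrombus and Col3a1 at 0 in spleen. The 6 B and plasma cell markers summed to 231 to 945 CPM in thrombus, 389 to 1268 in vein wall and 163 to 301 in spleen. The 6 macrophage and monocyte markers summed to 45.1 to 1552 CPM in thrombus, 19.4 to 260.4 in vein wall and 21.0 to 140.0 in spleen, with Itgam at 0 in spleen. Thrombus 2 held the highest of these sums, with Lyz2 at 1349 CPM and Hopx at 832 CPM. The part of these other cell types in the levels of Hopx and Il18r1 was not tested.

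Tbx21, which encodes T-bet (chromosome 11, 97098071 to 97115331, minus strand), was lower outside the spleen in most samples. Its levels were 22.8, 4.19, 5.50 and 0.464 CPM in thrombus 1 to 4, then 2.85, 5.26 and 8.30 CPM in the vein wall samples, and 33.2, 17.0 and 30.3 CPM in the spleen samples. The vein wall samples all lay below the spleen samples. Thrombus 1 was inside the spleen range, and the other 3 thrombus samples were below it. Relative to spleen, Tbx21 had a log2 fold change of -1.70 ± 0.90 in thrombus (adjusted p = 1.000, edgeR) and -2.29 ± 1.01 in vein wall (adjusted p = 0.885), and with file set as a covariate it was -2.17 ± 0.83 (adjusted p = 0.537) and -1.88 ± 0.90 (adjusted p = 0.645). Over the other settings of the test, adjusted p ran from 0.537 to 1.000 in thrombus and from 0.288 to 1.000 in vein wall. Without thrombus 1 the thrombus value was -2.99. Between thrombus and vein wall it was 0.59 ± 0.91, and -0.29 with file set as a covariate. In thrombus 3, 51.9% of Tbx21 reads fell in introns. The NK and CD8 T cell markers did not move as 1 list: Klrb1c was lower outside the spleen, at 0.0927 to 5.09 CPM in thrombus, 0.673 to 2.09 in vein wall and 14.4 to 39.9 in spleen, while Gzma reached 91.3 CPM in thrombus and 23.9 in vein wall, against at most 0.725 in spleen. Their part in the level of Tbx21 was not tested.

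Eomes, the other T-box factor (chromosome 9, 118478212 to 118486132, plus strand), was present in some samples and nearly absent in others of the same tissue. It had 1.04, 0.335, 0.106 and 0.278 CPM in thrombus 1 to 4, then 11.8, 1.24 and 0 CPM in the vein wall samples, and 21.2, 0.0536 and 9.54 CPM in the spleen samples. Thrombus was low throughout, while vein wall and spleen each held both high and near-zero samples, so all groups overlapped. The 0 in vein wall 3-4 allows up to 0.0748 CPM (3 reads), counting error only. Of the Eomes exon reads, 46.4% had 1 match in spleen 1, 81.0% in spleen 3-4 and 98.9% in vein wall 1. In thrombus, with few reads, the share was 33.3% to 100%. The fitted log2 fold changes were -4.51 ± 1.83 for thrombus over spleen (adjusted p = 1.000, edgeR), -1.24 ± 1.80 for vein wall over spleen (adjusted p = 0.980) and -3.26 ± 1.75 for thrombus over vein wall (adjusted p = 1.000). Within sets, vein wall over spleen was 4.47 in set 2 and -3.17 in set 3.

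Eomes is a gene of NK and CD8 T cells as well, so its level is set beside their markers. Vein wall 1 and spleen 1, with 11.8 and 21.2 CPM of Eomes, held 34.6 and 14.4 CPM of the NK receptor gene Ncr1 and 19.5 and 28.7 CPM of Klrd1. Thrombus 2 held 25.2 CPM of Ncr1 and 43.3 of Klrd1 with 0.335 CPM of Eomes, and spleen 3-4 held 0 of Ncr1 and 0.0259 of Klrd1 with 9.54 CPM of Eomes. Klrb1c, another NK receptor gene, stood at 5.09 CPM in thrombus 2, 2.09 in vein wall 1, 18.6 in spleen 1 and 14.4 in spleen 3-4. These are 4 of the 10 samples and 3 of the 9 markers, and they are given as values only. Of the 9 CD8 T and NK cell markers, all had reads in thrombus and vein wall and 8 in spleen, where Klra8 was at 0. Their sum was 248 to 971 CPM in thrombus, 519 to 709 in vein wall and 231 to 562 in spleen. Nkg7 alone made up most of this sum in each sample, with 209 to 634 CPM in thrombus, 448 to 634 in vein wall and 170.0 to 465 in spleen. The part of CD8 T and NK cells in the levels of Eomes, Ifng, Runx3 and Tbx21 was not tested. Fewer cells that express a gene cannot be told apart from less RNA per cell in bulk samples.

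Runx3 (chromosome 4, 135120652 to 135177990, plus strand) had 30.8, 19.5, 12.9 and 17.6 CPM in thrombus 1 to 4. Vein wall samples had 13.9, 7.73 and 43.5 CPM, and spleen samples had 29.4, 39.5 and 10.8 CPM. Each tissue held a high and a low sample, and the 3 ranges overlapped throughout. The log2 fold change was -0.39 ± 0.65 in thrombus and -0.29 ± 0.70 in vein wall over spleen (adjusted p = 1.000 and 0.988, edgeR). Within sets, vein wall over spleen was -1.48 in set 2 and 1.21 in set 3.

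Il12rb1, the receptor chain shared by interleukins 12 and 23 (chromosome 8, 70808449 to 70821424, plus strand), was lowest in vein wall. It had 16.9, 11.5, 8.88 and 18.8 CPM in thrombus 1 to 4, then 6.58, 7.52 and 9.45 CPM in the vein wall samples, and 20.9, 16.2 and 29.9 CPM in the spleen samples. The vein wall samples were all below the spleen samples, and thrombus lay between them and overlapped both. For vein wall over spleen the log2 fold change was -1.51 ± 0.68 (adjusted p = 0.885, edgeR), and -1.50 with file set as a covariate (adjusted p = 0.628), within -1.24 and -1.76 in sets 2 and 3. Over the other settings of the test, adjusted p ran from 0.201 to 1.000. Thrombus over spleen gave -0.67 ± 0.62 (adjusted p = 1.000).

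Il12rb2, the chain that makes Th1 cells responsive to interleukin 12 (chromosome 6, 67291318 to 67376188, minus strand), was near the detection limit. Its exon reads were 18, 16, 0 and 14 in thrombus 1 to 4, a single read in vein wall 1 and none in the other vein wall samples, and a single read in spleen 1 and none in the other spleen samples. Thus 48 of the 50 exon reads lay in 3 of the 4 thrombus samples, while thrombus 3, which had none, allows up to 0.317 CPM. The spleen read had more than 1 match. In the test over samples thrombus passed neither against spleen nor against vein wall (adjusted p = 1.000 and 1.000, edgeR), and no fold is given on so few reads. Intron reads outnumbered exon reads, at 5.52, 3.47, 1.69 and 19.2 CPM in thrombus 1 to 4, at most 0.913 in vein wall and at most 2.03 in spleen. The exons of Serbp1, on the other strand, overlap the 3′ end of Il12rb2 in the Ensembl models.

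Stat4 (chromosome 1, 51987148 to 52107189, plus strand), which carries the signal of interleukin 12, did not differ between tissues beyond the spread between samples. It had 215, 301, 173 and 162 CPM in thrombus 1 to 4, then 423, 135 and 78.7 CPM in the vein wall samples, and 164, 235 and 176 CPM in the spleen samples. Vein wall held both the highest and the lowest sample, and all groups overlapped. Relative to spleen, Stat4 had log2 fold changes of 0.15 ± 0.45 in thrombus and 0.15 ± 0.48 in vein wall (adjusted p = 1.000 and 0.991, edgeR). Within sets, vein wall over spleen was 0.85 in set 2 and -0.72 in set 3.

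The kinds of reads counted for Stat4 differed by set. In sets 1 and 3, 46.1% to 63.3% of its exon reads had 1 match, and in set 2 100% had. The models of sets 1 and 3 list Gm28177, a gene that overlaps Stat4 on the same strand, and those of set 2 do not. Gm28177 had 92 exon reads in spleen 1 and 84 in thrombus 1, and in set 3 its exon length was 0. Its part in the share of Stat4 reads with 1 match was not tested. Intron reads of Stat4 were abundant, at 249, 149.6, 218 and 436 CPM in thrombus 1 to 4, at 219.6, 169 and 232 in the vein wall samples, and at 201, 82.3 and 54.5 in the spleen samples. They made up 33.2% to 72.9% of Stat4 reads in thrombus, 34.2% to 74.6% in vein wall and 23.7% to 55.0% in spleen. Over whole libraries the intron share was 12.1% to 20.5%.

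**Figure D3:**
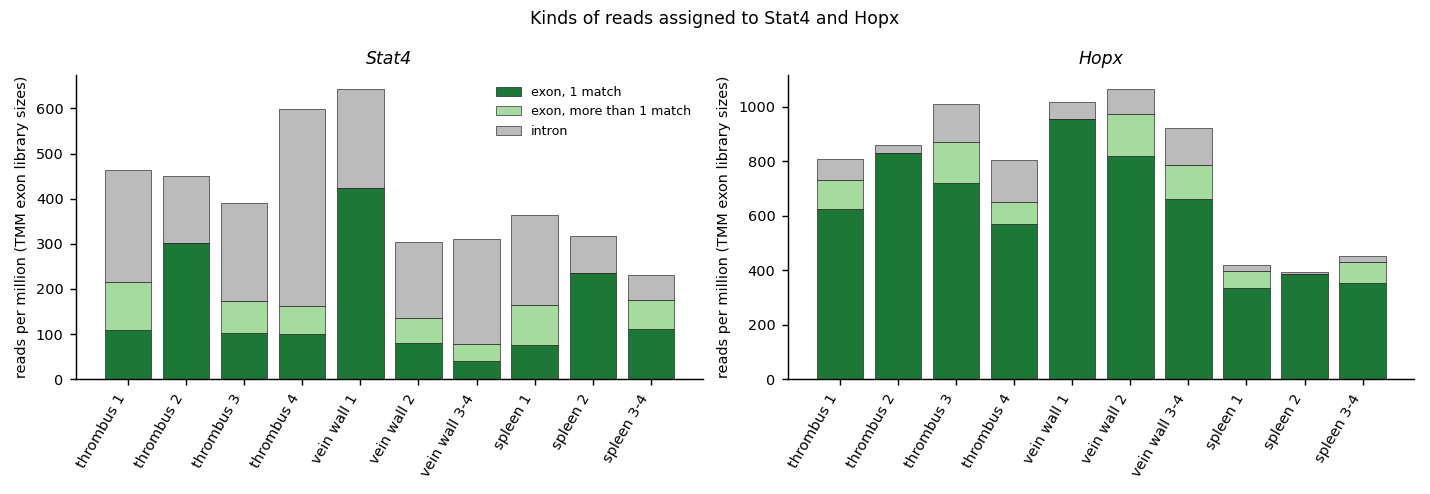
Reads of Stat4 and Hopx in each sample, as exon reads with 1 match, exon reads with more than 1 match and intron reads, in CPM on TMM exon library sizes. Stat4 intron reads reach 436 in thrombus 4, and Hopx exon reads exceed those of all spleen samples in each thrombus and vein wall sample.

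Il18r1, the binding chain of the interleukin 18 receptor (chromosome 1, 40465552 to 40500854, plus strand), was highest in vein wall. It had 28.6, 16.4, 44.6 and 44.2 CPM in thrombus 1 to 4, then 51.3, 31.0 and 63.0 CPM in the vein wall samples, and 12.8, 25.1 and 17.8 CPM in the spleen samples. All vein wall samples were above all spleen samples, and thrombus overlapped both because thrombus 2 fell inside the spleen range. The log2 fold change over spleen was 1.39 ± 0.55 in vein wall (adjusted p = 0.807, edgeR) and 0.85 ± 0.52 in thrombus (adjusted p = 1.000), and with file set as a covariate 1.22 (adjusted p = 0.609) and 0.77 (adjusted p = 0.928). Within sets, vein wall over spleen was 1.02 and 1.38 in sets 2 and 3, whereas thrombus over spleen was 1.13, -0.60 and 1.30 in sets 1, 2 and 3. Over the other settings of the test, adjusted p ran from 0.168 to 1.000 in vein wall.

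Il18rap, the signalling chain of the same receptor, neighbours Il18r1 on chromosome 1 (40515362 to 40551705, plus strand). Its levels were 20.8, 18.0, 14.2 and 10.6 CPM in thrombus 1 to 4, then 41.7, 17.3 and 16.9 CPM in the vein wall samples, and 20.3, 7.50 and 8.92 CPM in the spleen samples. The ranges overlapped, because spleen 1 reached the level of the other tissues. Relative to spleen, Il18rap had log2 fold changes of 1.05 ± 0.68 in vein wall (adjusted p = 0.961, edgeR) and 0.38 ± 0.63 in thrombus (adjusted p = 1.000). Vein wall over spleen was 2.40 and 0.90 in sets 2 and 3.

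Ifng, the cytokine itself (chromosome 10, 118441046 to 118445892, plus strand), varied more within a tissue than between tissues. It had 50.1, 103, 8.99 and 8.99 CPM in thrombus 1 to 4, then 19.0, 18.6 and 40.1 CPM in the vein wall samples, and 48.0, 66.8 and 10.7 CPM in the spleen samples. In both thrombus and spleen the samples of sets 1 and 2 were high and those of set 3 low, and the ranges overlapped. The means were 42.9 ± 44.8 CPM in thrombus (SD, n = 4), 25.9 ± 12.3 in vein wall (n = 3) and 41.8 ± 28.6 in spleen (n = 3). The log2 fold change over spleen was 0.04 ± 0.82 in thrombus (adjusted p = 1.000, edgeR) and -0.69 ± 0.88 in vein wall (adjusted p = 0.976).

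Within sets, Ifng in thrombus over spleen was 0.06, 0.63 and -0.23 on the log2 scale in sets 1, 2 and 3. Vein wall over spleen was -1.79 in set 2 and 1.42 in set 3, so the pooled sign does not hold within both sets, and with file set as a covariate the value was 0.73 ± 0.75 (adjusted p = 0.881). Intron reads were at most 12.1% of Ifng reads in any sample.

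The other genes of the pathway were taken as 6 lists of 54 genes, of which 51 could be tested (Cxcl9, Hlx and Twist1 had too few reads). None was called in any of the 3 comparisons with tissue as the single factor (edgeR), and at an unadjusted p under 0.05 there were 9 in thrombus against spleen (4.13% of all genes tested), 8 in vein wall against spleen (5.46%) and 3 in thrombus against vein wall (2.91%). In thrombus against spleen 33 lay above 0 and 18 below, with a median log2 fold change of 0.30. In vein wall against spleen 24 lay above and 27 below (median -0.13), and in thrombus against vein wall 37 above and 14 below (median 0.29). Over all genes tested the medians were 0.03, -0.01 and 0.04 in these comparisons. The pathway genes share the same samples, and their counts of signs were not tested. With file set as a covariate Bhlhe40 was called against spleen in both tissues, 1 of the 51 each time (0.453% of all genes tested in thrombus and 0.41% in vein wall), and none between thrombus and vein wall.

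Bhlhe40, a basic helix-loop-helix repressor that T cells need to hold interleukin 10 in check and to keep up interferon gamma, was named because the covariate fit called it. It had 475, 218, 311 and 376 CPM in thrombus 1 to 4, then 261, 237 and 236 CPM in the vein wall samples, and 209, 71.3 and 53.0 CPM in the spleen samples. Every thrombus and vein wall sample was above every spleen sample, with spleen 1 close below thrombus 2. Over spleen it had a log2 fold change of 1.64 ± 0.43 in thrombus (adjusted p = 0.392, edgeR) and 1.14 ± 0.45 in vein wall (adjusted p = 0.804), and with file set as a covariate it rose by 1.93 ± 0.30 (adjusted p = 0.00199) and 1.76 ± 0.32 (adjusted p = 0.0143). Over the other settings of the test, adjusted p ran from 0.00199 to 1.000 in thrombus and from 0.0143 to 0.938 in vein wall. In the covariate fit the thrombus call held in 10 of 10 fits that left out 1 sample, and the vein wall call in 7 of 10, being lost without spleen 2, spleen 3-4 or vein wall 1.

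**Figure D4:**
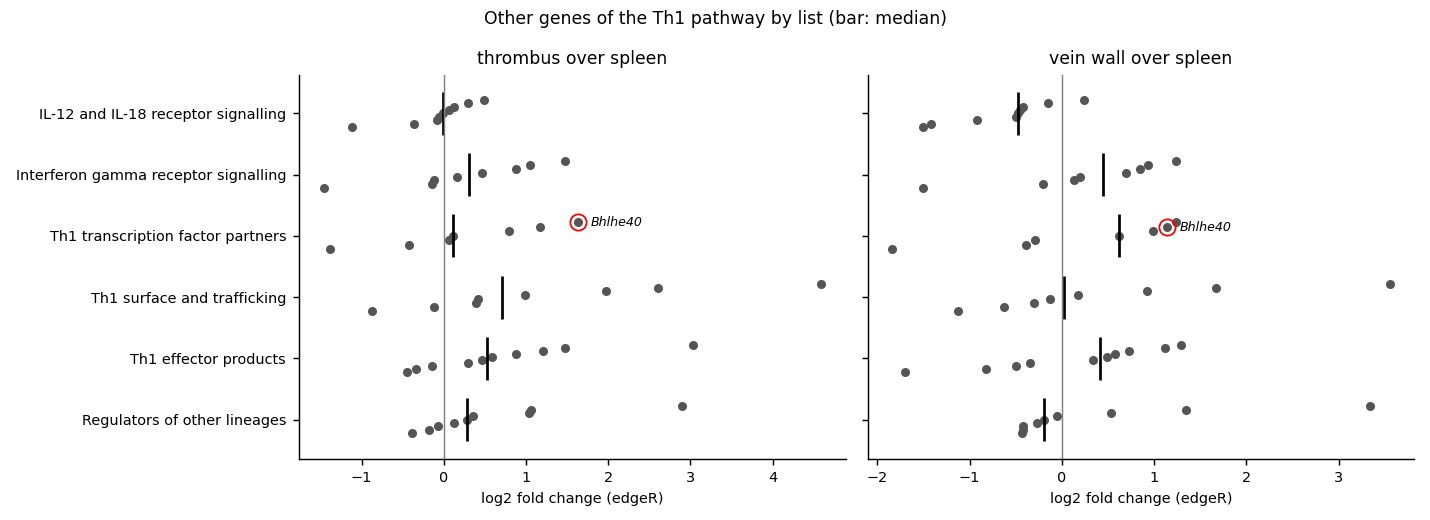
Log2 fold changes (edgeR, tissue as the single factor) of the 51 tested genes of 6 pathway lists, in thrombus over spleen and vein wall over spleen. Each point is a gene and the bar is the list's median; Bhlhe40 (red ring), at 1.64 and 1.14, passed with file set as a covariate.

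The list of IL-12 and IL-18 receptor signalling had 4 of 9 genes above 0 in thrombus and 1 of 9 in vein wall against spleen, with medians of -0.01 and -0.48. Its most abundant gene, Il27ra, the interleukin 27 receptor, averaged 159 ± 70.0 CPM in thrombus, 107 ± 17.9 in vein wall and 146 ± 39.9 in spleen. Interferon gamma receptor signalling had 5 and 6 of 8 genes above 0 (medians 0.31 and 0.45).

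Ifngr1, the ligand-binding chain for interferon gamma, was picked out after its values were seen. It had 793, 578, 509.8 and 661 CPM in thrombus 1 to 4, 859, 588 and 542 CPM in the vein wall samples, and 247, 399 and 392 CPM in the spleen samples. Neither tissue overlapped the spleen, yet the log2 fold changes of 0.88 ± 0.32 in thrombus and 0.94 ± 0.33 in vein wall did not pass (adjusted p = 0.849 and 0.754, edgeR).

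Transcription factor partners had 5 and 4 of 7 genes above 0 in thrombus and vein wall against spleen (medians 0.12 and 0.61). Id2, an inhibitor of E proteins and the most abundant of them, averaged 865 ± 313 CPM in thrombus, 902 ± 316 in vein wall and 383 ± 172 in spleen, with log2 fold changes of 1.18 ± 0.40 and 1.24 ± 0.42 (adjusted p = 0.750 and 0.694, edgeR). Surface and trafficking genes had 6 and 4 of 8 above 0 (medians 0.71 and 0.02). Selplg, the selectin ligand PSGL-1, averaged 593 ± 92.7 CPM in thrombus, 509.9 ± 211 in vein wall and 453 ± 58.2 in spleen.

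Cxcr3, the chemokine receptor that T-bet controls, was also picked out after its values were seen. It had 247.5, 219, 102 and 159 CPM in thrombus 1 to 4, 178, 139 and 140.4 CPM in the vein wall samples, and 382, 352 and 261 CPM in the spleen samples. Like Tbx21 it was lower in each vein wall sample than in any spleen sample, and unlike Tbx21 it was so in each thrombus sample too. On the log2 scale it differed from spleen by -0.87 ± 0.34 in thrombus and by -1.12 ± 0.37 in vein wall (adjusted p = 0.990 and 0.648, edgeR).

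Effector products had 7 and 6 of 10 genes above 0 (medians 0.52 and 0.41). Lta, which encodes lymphotoxin alpha, averaged 170.4 ± 76.0 CPM in thrombus, 174 ± 45.6 in vein wall and 124 ± 50.0 in spleen. Regulators of other lineages had 6 and 3 of 9 above 0 (medians 0.28 and -0.19), and Ikzf2, which encodes the Treg factor Helios, averaged 517 ± 177 CPM in thrombus, 504 ± 273 in vein wall and 676 ± 292 in spleen. Neither Lta nor Ikzf2 passed in either comparison.

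Genes with a pattern like that of Tbx21 and Ifng were ranked by Pearson's r of log2(CPM + 1), centred within each set, over the 10 samples, which share library and set. For Tbx21 they were Nhlrc2 (r = 0.975), Cacnb4 (0.959), Limd2 (0.949), Wdr4 (0.945) and Rfxank (0.943). Nhlrc2 averaged 11.3 CPM in thrombus, 10.5 in vein wall and 26.4 in spleen. For Ifng they were 9130401M01Rik (r = 0.965), Cnga1 (0.942), Trim37 (0.940), Ckm (0.940) and F13a1 (0.938), none of which belongs to the pathway lists. These are the highest of 11705 genes and are given as a description.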

How the data were processed

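RNA of sorted CD69+ Foxp3-EGFP+ Treg was sequenced in 12 libraries. A SMART-Seq kit gave full-length cDNA and Nextera XT the libraries, per the labels' protocols. These libraries record neither strand nor molecular identifiers, so limits and intervals reflect counting error only. The authors' deposited tables hold whole-number counts per gene, of which total exon reads, unique exon reads and intron reads were used. In the total, per the file headers, are also reads that match more than once (13.6% to 21.8% of exon reads). The submitters' processing notes name GRCm38 as the build, and the sources used here name no aligner or counter.

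The 3 sets of tables use different gene models. Ensembl gene IDs joined set 1 to set 3, and set 2 was added by gene name where position and strand overlapped, giving 20856 genes (20737 by symbol, 119 by another name) with 92.3% to 96.3% of exon reads. Near-duplicate pairs (spleen 3 and 4, vein wall 3 and 4) were summed. They were chosen on the SD of the log2 ratio between libraries, over genes with at least 1000 reads in each. This SD was 0.070 to 0.072 in the near-duplicate pairs and 0.436 to 0.852 in 16 other pairs. The chi-square was taken over genes with at least 40 reads. The test on counts was that of edgeR 4.0.16 (R 4.3.3): TMM, default filter on low counts, robust quasi-likelihood F tests, tissue as the single factor, all 10 samples in 1 fit, Benjamini-Hochberg adjustment over 11705 genes and a threshold of 0.05. The fit was run on simulated counts that held changes in thrombus but no effect of file set, which the run therefore did not test. CPM per kb divides by each table's own exon length. Ratios within a set use a pseudocount of 0.5 CPM.

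Alternatives were RLE scaling, no filter, DESeq2 1.42.0, file set as covariate, 12 separate libraries, unique exon reads, a replicate block and leaving out each sample. For Hopx and Bhlhe40 the covariate fit was also run without each sample and on unique reads, which was chosen after seeing the data. By rule, the text names the 10 genes, each pathway gene called in the test or in the covariate fit, the gene of highest mean CPM in each list, and the 5 genes most like Tbx21 and like Ifng, and 1 gene that it would name is not reported here. The 10 genes, the lists and the summing were chosen with earlier results of these data known. Promoters are RefSeq's, in GRCm38.p6. RPKM values were not used here.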

Additional observations from a re-analysis of the deposited data

Results flagged for a closer look

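Exon levels of the 10 genes were checked for a sample far from the others in the 10 groups of 4 samples (thrombus), where chance flags about 1 in 20 groups, and none stood apart. Intron reads entered no test and are also described above by the same criterion. They exceeded the highest spleen sample in all samples of a tissue for 3 of the 10 genes (over all genes tested, 2.87% in thrombus and 3.6% in vein wall). For Hopx the lowest thrombus sample had 28.9 intron CPM and the lowest vein wall sample 65.1, against at most 24.4 in spleen. For Il18r1 the lowest vein wall sample had 12.5 intron CPM, against at most 8.55 in spleen. For Eomes the lowest vein wall sample had 0.0997 intron CPM, against at most 0.0129 in spleen, a level of a few reads. In the other direction, Il12rb1 intron reads were at most 0.175 CPM in vein wall, against at least 1.72 in spleen. The antisense gene Hopxos overlaps Hopx, and its part in the intron reads was not tested.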

How the results depend on the processing

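Genes called over all genes tested were 17, 13 and 0 in thrombus against spleen, vein wall against spleen and thrombus against vein wall (484, 639 and 341 at an unadjusted p under 0.05, edgeR). They were 80, 66 and 2 with no filter, 53, 48 and 0 with file set as covariate, 105, 119 and 10 with DESeq2, 35, 51 and 0 with 12 separate libraries, and 13, 7 and 0 with unique reads. Leaving out 1 sample gave 6 (without spleen 2) to 34 (without spleen 1), 5 (without spleen 2) to 28 (without spleen 1), and 0 throughout. Of 485 values of the 10 genes under the alternatives with a test, 453 kept their direction and side of the threshold, 28 turned sign and 4, all of Hopx, passed. No value that turned was called, and the cause was not tested.

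The labels do not say what the shared experiment number marks. Deviations of same-numbered samples had r over 0.1 in 5 of 8 pairs within a file set (0.0395 to 0.397) and in 0 of 4 across sets (-0.0656 to 0.0176), so number and set cannot be told apart, and the samples were not treated as paired. With the number as a replicate block, 32, 24 and 0 genes were called, none of them among the 10. Under the block the log2 fold change turned to -0.11 for Stat4 and 0.12 for Ifng in vein wall over spleen, and to -0.075 for Ifng in thrombus over vein wall.

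With file set as covariate it turned to -0.29 for Tbx21 and -0.63 for Ifng in thrombus over vein wall, and to -0.027 for Stat4, 0.73 for Ifng and 0.11 for Runx3 in vein wall over spleen. With 12 libraries vein wall over spleen turned to -0.084 for Stat4, 0.24 for Runx3 and -0.054 for Selplg. Stat4 in thrombus over vein wall was -0.017 with no filter and -0.22 with unique reads. Leaving out 1 sample, thrombus over spleen ran from -0.062 to 0.34 for Stat4, -0.91 to 0.56 for Ifng, -0.77 to 0.021 for Runx3 and -0.23 to 0.34 for Il27ra. Vein wall over spleen ran from -0.82 to 0.54 for Stat4, -1.30 to 0.15 for Runx3 and -0.084 to 0.46 for Selplg. Thrombus over vein wall ran from -0.69 to 1.02 for Tbx21, -0.39 to 0.98 for Stat4, -0.22 to 1.19 for Ifng and -0.53 to 0.90 for Runx3.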
